A study of Homo sapiens with 9 samples.

Results

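MS4A3 and IGF1 are 2 of the 58214 genes summed from the transcript tables, and both had their lowest level after siRNA against DHX34 and their highest after siRNA against UPF1. The pair was chosen on these same libraries for that pattern, so their levels and fold changes in the 3 groups are given as a description, without a test. The pattern differed in size between the genes. MS4A3 had about the same change in each direction, with a log2 fold change of -1.27 ± 0.09 (SE) in DHX34-kd and 1.24 ± 0.06 in UPF1-kd. For IGF1 the difference by counts lay almost wholly in DHX34-kd, with -2.24 ± 0.13, beside 0.21 ± 0.06 in UPF1-kd. Scaled by transcript length it was less uneven, at 0.484 times SCR in DHX34-kd and 1.44 times SCR in UPF1-kd. On that scale short transcripts with few counts, which varied between replicates, weigh more.

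MS4A3, also called HTm4, is a small membrane protein that crosses the membrane repeatedly, a relative of the B cell antigen CD20. It marks granulocyte and monocyte progenitors and basophils, and it binds the cyclin-dependent kinase phosphatase CDKN3. IGF1, insulin-like growth factor 1, is a secreted hormone that signals through the receptor IGF1R to the PI3K-AKT-mTOR branch and is held in the circulation by the IGFBP proteins. Its gene has alternative leader exons and alternative last exons, and the last exons encode different E peptides that are removed from the mature hormone.

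Poly(A) RNA was sequenced from K562, a human erythroleukaemia line derived from chronic myeloid leukaemia, 4 days after the first of repeated siRNA transfections. There were 3 libraries in each of 3 groups: SCR (non-targeting siRNA pool), DHX34-kd (an siRNA pool against the RNA helicase DHX34) and UPF1-kd (siRNA against UPF1, the core helicase of nonsense-mediated decay, NMD). Titles name the line K562, although another field spells it K652, and the SCR libraries carry the treatment label WT. All cells came from 1 line, and each target kept part of its RNA.

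The targeted RNAs followed the labels. DHX34 measured 69.3, 72.1 and 70.6 CPM (counts scaled to a fixed library total) in SCR and 30.3, 30.3 and 35.2 CPM in DHX34-kd, a log2 fold change of -1.23 (edgeR adjusted p = 3.33e-07). UPF1 measured 241, 259 and 252 CPM in SCR and 108, 110 and 107 CPM in UPF1-kd, a log2 fold change of -1.31 (edgeR adjusted p = 2.41e-10). Library totals lay between 73478797 and 103625443 expected counts. The 9 erythroid markers, which include GATA1, KLF1 and the embryonic and fetal globins, summed to between 11734 and 12557 CPM in SCR, 10518 and 11471 CPM in DHX34-kd, and 7582 and 8018 CPM in UPF1-kd. Of the 12 markers of other lineages, KRT5 and KRT14 were at 0 in every library and CDH5 was at 0 in SCR and UPF1-kd. The epithelial marker EPCAM, in contrast, averaged 97.0 CPM in SCR, and the collagen gene COL1A1 went from 0.672 CPM in SCR to 4.90 CPM in DHX34-kd. The other tested collagen gene, COL1A2, was not called by edgeR in DHX34-kd. Between the knockdowns COL1A2 was called higher in UPF1-kd and COL1A1 lower. The 4 fibroblast or endothelium markers together averaged 8.19 CPM in SCR and 10.3 CPM in DHX34-kd. The part of these shifts in the values of MS4A3 and IGF1 was not tested. RNA was bulk, so fewer cells with a transcript and less transcript per cell cannot be told apart.

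MS4A3 (ENSG00000149516) lies on the plus strand of chromosome 11, from 60056587 to 60071115, and IGF1 (ENSG00000017427) on the minus strand of chromosome 12, from 102395874 to 102481744, both on GRCh38. RefSeq gives 1 start window for MS4A3 and 2 for IGF1, called upstream and downstream leader below. All 3 are shown because transcripts starting near both IGF1 windows were measured. The start of IGF1-202 and IGF1-201, at 102480563, lies between the 2 IGF1 windows and in neither. IGF1-202 took 84.6% of the IGF1 expected counts in SCR. Each run below holds the 250 bases before the RefSeq start on GRCh38.p14, on the strand of the gene, with matches to the searched motifs in capitals. Some measured transcripts start inside these runs, so part of each such run is transcribed. They are MS4A3-203 at 60056587, MS4A3-202 and MS4A3-206 at 60056628, and IGF1-205 at 102478651.
MS4A3, chr11:60056415-60056664, plus strand: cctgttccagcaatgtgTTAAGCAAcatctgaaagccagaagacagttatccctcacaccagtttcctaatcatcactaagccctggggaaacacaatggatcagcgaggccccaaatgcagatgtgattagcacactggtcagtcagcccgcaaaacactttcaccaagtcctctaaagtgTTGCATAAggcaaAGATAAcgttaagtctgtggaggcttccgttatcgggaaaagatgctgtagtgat
IGF1 upstream leader, chr12:102481748-102481997, minus strand: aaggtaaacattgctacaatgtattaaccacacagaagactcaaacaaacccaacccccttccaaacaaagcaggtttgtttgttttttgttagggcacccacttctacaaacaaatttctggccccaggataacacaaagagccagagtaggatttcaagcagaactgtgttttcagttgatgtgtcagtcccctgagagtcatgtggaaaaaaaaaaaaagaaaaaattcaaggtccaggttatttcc
IGF1 downstream leader, chr12:102478551-102478800, minus strand: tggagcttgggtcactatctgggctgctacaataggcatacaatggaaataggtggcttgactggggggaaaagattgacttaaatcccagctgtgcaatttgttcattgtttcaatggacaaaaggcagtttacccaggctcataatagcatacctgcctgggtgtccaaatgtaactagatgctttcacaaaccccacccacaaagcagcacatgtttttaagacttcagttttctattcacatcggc

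The motifs were searched on both strands of the full windows, which run on for 50 bases past the start. The motif TATAAA is that of the core promoter element bound by TBP, and both AGATAA and the overlapping motif TGATAA are those of the erythroid factor GATA1 and its relatives. The motif TTGCNNAA is that of C/EBP factors, TTCNNNGAA that of STAT factors and GAGGAA that of ETS factors such as PU.1. The MS4A3 window held 2 matches to TTGCNNAA, at positions -233 and -68 relative to the start, and 1 match to AGATAA, at -55. It also held 1 match to GAGGAA, at position 40 and so outside the run shown. The matches at -68 and -55 lie past the start of MS4A3-203. Among the 35116 RefSeq windows of this length, 10.5% held TTGCNNAA, 10.3% AGATAA and 27.9% GAGGAA. Neither IGF1 window held any of the 6 motifs, of which TATAAA occurred in 11.5% of all windows, TGATAA in 7.53% and TTCNNNGAA in 7.66%.

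The splice junctions that separate the main transcripts are coding sequence and are shown for the same reason, with 30 bases on each side and the downstream exon in capitals. MS4A3-201 and MS4A3-202 differ by a skipped exon of 138 bases (chr11:60062468-60062605), a multiple of 3. IGF1-202 and IGF1-201 leave the same exon for different last exons, chr12:102395874-102402566 (6693 bases) and chr12:102417491-102418003 (513 bases).
MS4A3-201, skipped exon included: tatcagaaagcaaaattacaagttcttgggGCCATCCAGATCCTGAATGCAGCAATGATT
MS4A3-202, skipped exon left out: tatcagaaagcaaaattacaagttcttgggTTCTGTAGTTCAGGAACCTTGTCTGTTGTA
IGF1-202, long last exon: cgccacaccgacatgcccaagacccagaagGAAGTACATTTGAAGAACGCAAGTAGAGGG
IGF1-201, other last exon: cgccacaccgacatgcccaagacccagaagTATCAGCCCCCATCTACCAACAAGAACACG

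MS4A3 separated the 3 groups in every library. Its level was 16.3, 17.5 and 19.0 CPM in SCR replicates 1 to 3. With DHX34 siRNA it was 8.33, 7.84 and 6.95 CPM, and with UPF1 siRNA 43.8, 45.7 and 44.7 CPM. The highest DHX34-kd library lay below the lowest SCR library and the highest SCR library below the lowest UPF1-kd library. Fold changes were 2.42 lower in DHX34-kd and 2.36 higher in UPF1-kd, relative to SCR, and 5.79 higher in UPF1-kd than in DHX34-kd (log2 fold change 2.53 ± 0.07, SE, n = 3 libraries per group). Per length the order was the same, with 21.0 ± 2.39 TPM (length-scaled transcript abundance; SD, n = 3) in SCR, 8.54 ± 0.957 TPM in DHX34-kd and 55.3 ± 1.54 TPM in UPF1-kd. Among all genes tested, the SCR level of MS4A3 per length stood at percentile 73.2.

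IGF1 was the less abundant of the pair and its groups were unevenly spaced. In SCR it measured 9.91, 10.4 and 9.79 CPM, in DHX34-kd 1.93, 2.70 and 2.16 CPM, and in UPF1-kd 12.3, 12.4 and 12.6 CPM. The groups did not overlap, but the distance from SCR to UPF1-kd was small, and the median gene itself lay 0.09 higher in UPF1-kd than in SCR on the log2 CPM scale. After TMM scaling, which removes such shifts, SCR held 10.4 to 10.7 CPM and UPF1-kd 12.0 to 12.3 CPM, still apart. Relative to SCR, IGF1 was 4.72-fold lower in DHX34-kd and 1.16-fold higher in UPF1-kd, and UPF1-kd stood 5.53-fold above DHX34-kd (log2 fold change 2.47 ± 0.12, SE, n = 3 libraries per group). By log2 fold change in DHX34-kd, IGF1 was the 16th lowest and MS4A3 the 85th lowest of 17004 genes. In UPF1-kd MS4A3 was the 332nd highest and IGF1 the 4817th highest of 17184.

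The size of the IGF1 difference depended on the unit. In TPM, which divides each transcript's count by its effective length before summing, IGF1 measured 3.92 ± 0.168 TPM in SCR (SD, n = 3), 1.90 ± 0.269 TPM in DHX34-kd and 5.65 ± 0.449 TPM in UPF1-kd. DHX34-kd thus kept 0.484 of the SCR level in TPM but 0.212 by counts, while UPF1-kd stood at 1.44 times SCR in TPM and 1.16 times by counts. For MS4A3 the same ratios in TPM were 0.406 and 2.63, close to those by counts.

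**Figure D1:**
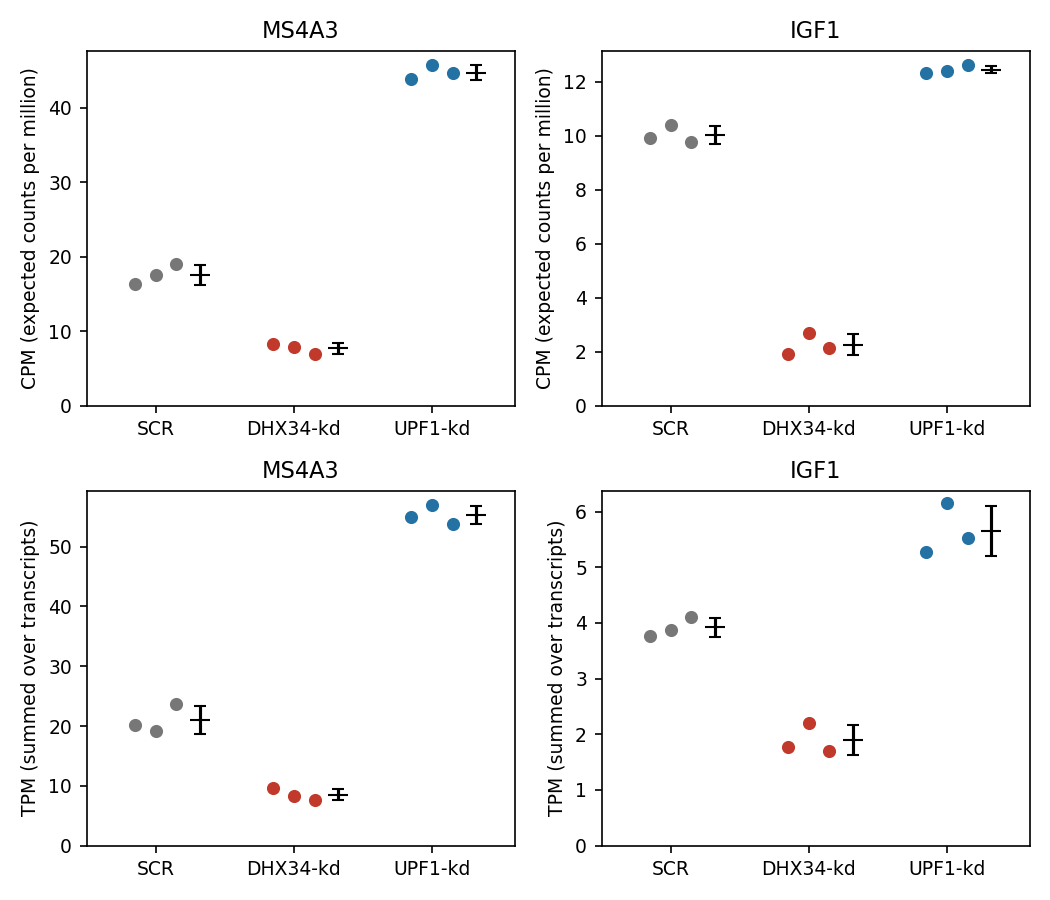
Level of MS4A3 (left) and IGF1 (right) in CPM (top) and TPM (bottom) on axes from 0. Each point is a library, and the bar beside each group gives mean ± SD (n = 3). MS4A3 spans 6.95 to 45.7 CPM with no overlap of groups; the IGF1 points of DHX34-kd lie at 1.93 to 2.70 CPM, far below the other groups, which lie close together.

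MS4A3 has 8 transcripts in the tables, and 5 carried nearly all of its RNA. The leading one was MS4A3-201, the full-length coding transcript with 7 exons. It measured 7.86, 10.4 and 9.94 TPM in SCR, 5.60, 4.90 and 4.96 TPM in DHX34-kd, and 25.4, 25.7 and 26.3 TPM in UPF1-kd. Groups of this transcript did not overlap. MS4A3-203, a coding transcript of 5 exons, measured 4.06, 3.48 and 4.17 TPM in SCR, 1.86, 2.01 and 1.35 TPM in DHX34-kd, and 14.4, 13.2 and 15.2 TPM in UPF1-kd, again without overlap. MS4A3-202, which lacks the 138-base exon, was scarcer and its SCR and DHX34-kd libraries nearly met: 1.56, 0.843 and 1.09 TPM in SCR, 0.255, 0.840 and 0.250 TPM in DHX34-kd, and 2.46, 4.05 and 4.10 TPM in UPF1-kd.

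The remaining 2 abundant MS4A3 transcripts are annotated as retaining an intron. MS4A3-206, a short transcript of 486 bases from the 5′ end of the gene, measured 4.52, 1.83 and 5.53 TPM in SCR, 1.82, 0.618 and 1.12 TPM in DHX34-kd, and 8.09, 7.58 and 8.15 TPM in UPF1-kd. For MS4A3-207 the values were 2.20, 2.52 and 3.01 TPM in SCR, and the transcript was listed at 0 in all 3 DHX34-kd libraries. In UPF1-kd it was 4.08 and 6.15 TPM in replicates 1 and 2 and listed at 0 in replicate 3. MS4A3-207 thus spanned 0 to 6.15 TPM within 1 group, and whether reads assigned between similar transcripts moved it was not tested.

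MS4A3-204 is the MS4A3 transcript that the annotation marks as an NMD substrate. It was at or near 0, with 0 TPM in every SCR library, 0.030 TPM in 1 DHX34-kd library, and 0.352, 0.033 and 0.031 TPM in UPF1-kd. Its highest share of MS4A3 in any group was 0.252% of TPM, in UPF1-kd. MS4A3-205 averaged 0.168 TPM in UPF1-kd, and MS4A3-208 was listed at 0 throughout.

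Within MS4A3, the share of MS4A3-201 was 45.02% ± 8.15 of TPM in SCR (SD, n = 3), 60.6% ± 3.45 in DHX34-kd and 46.7% ± 1.93 in UPF1-kd. In DHX34-kd the other transcripts were lower by more: MS4A3-201 alone had a log2 fold change of -1.03 ± 0.11 (SE) and the other 7 together -1.91 ± 0.20. The other 7 include the unstable MS4A3-207, with 94.5 to 161 expected counts in SCR and 0 in every DHX34-kd library. Its part in this gap was not tested, and the split was chosen after the values were seen. In UPF1-kd the leading transcript and the rest had nearly equal values, 1.25 ± 0.08 and 1.22 ± 0.11. The higher MS4A3 level in UPF1-kd was thus shared by the full-length coding transcript and the others.

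IGF1 has 7 transcripts in the tables. IGF1-202, the leading one, ends in the long last exon, most of it 3′ UTR, and took 84.6% ± 1.91 of the IGF1 expected counts in SCR (SD, n = 3). Its expected counts were 618, 647 and 739 in SCR, 103, 117 and 109 in DHX34-kd, and 772, 949 and 1093 in UPF1-kd. In TPM it measured 1.39, 1.51 and 1.33 in SCR, 0.182, 0.285 and 0.242 in DHX34-kd, and 1.87, 1.86 and 1.92 in UPF1-kd. The groups of IGF1-202 did not overlap on either scale, and the mean in DHX34-kd was 0.168 of that in SCR by TPM.

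IGF1-201, with the alternative last exon and the longer coding sequence (585 against 459 bases), differed less between groups. Like IGF1-202 it starts at 102480563, between the 2 start windows shown. It measured 1.29, 1.30 and 1.22 TPM in SCR and 0.609, 0.849 and 0.558 TPM in DHX34-kd, without overlap. In UPF1-kd it was 1.69, 1.45 and 1.17 TPM, a range that takes in all 3 SCR libraries. By expected counts its share of IGF1 was 10.4% ± 0.343 in SCR, 23.2% ± 2.81 in DHX34-kd and 8.83% ± 1.70 in UPF1-kd (SD, n = 3).

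IGF1-205 starts in the downstream leader exon, at 102478651. It measured 1.10, 1.07 and 0.0520 TPM in SCR, 0.287, 0.378 and 0.0658 TPM in DHX34-kd, and 1.59, 1.37 and 0.875 TPM in UPF1-kd, so its SCR libraries overlapped both other groups. IGF1-207, which starts at 102481744 in the upstream leader region, was listed at 0 in 2 SCR libraries and at 1.16 TPM in the other, between 0.691 and 0.836 TPM in DHX34-kd, and at 0, 1.47 and 0 TPM in UPF1-kd. IGF1-204 appeared in 1 SCR library (0.342 TPM) and 1 UPF1-kd library (1.56 TPM) and was otherwise listed at 0. These 3 transcripts are 612 to 730 bases long, each rested on at most 69.1 expected counts in any library, and which of them was above 0 differed between replicates. IGF1-203 reached 0.125 TPM in 1 UPF1-kd library and IGF1-206 was listed at 0 throughout.

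**Figure D2:**
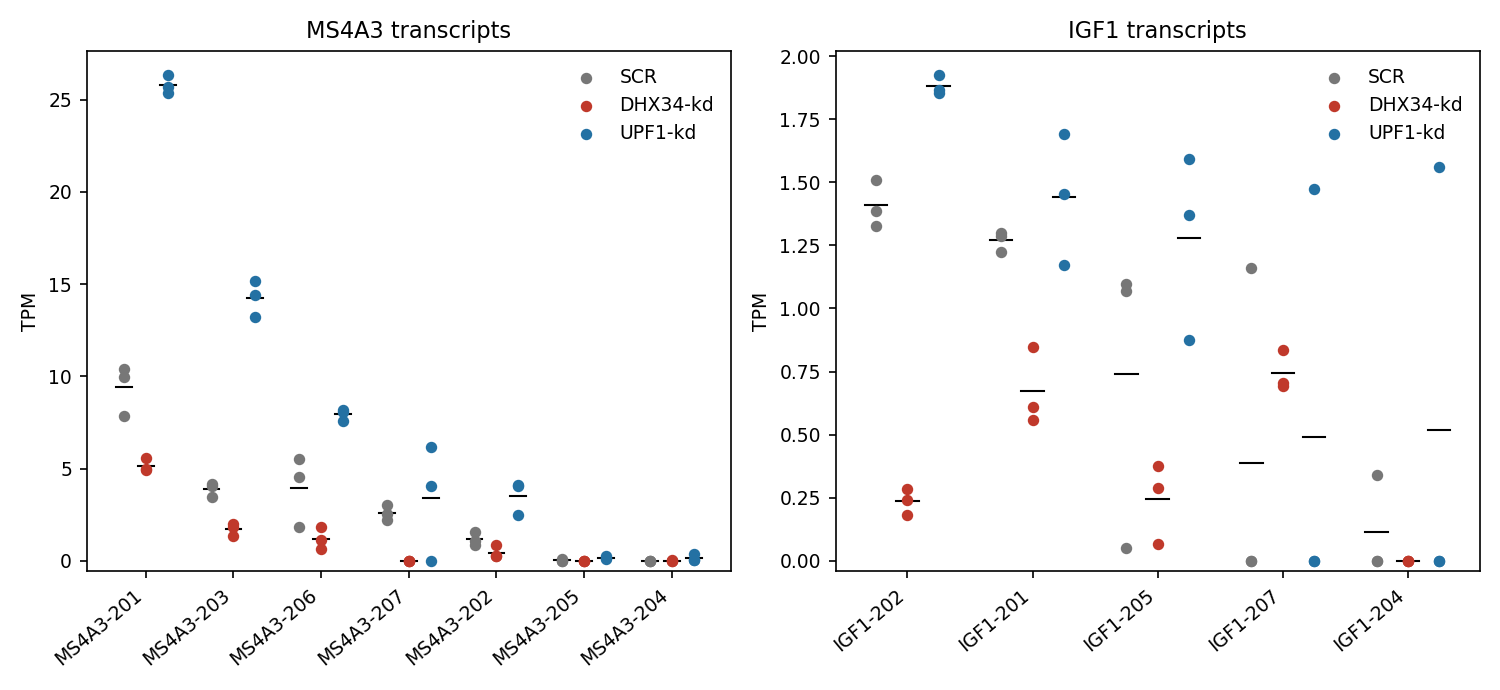
Level in TPM of each transcript of MS4A3 (left) and IGF1 (right) with a mean of at least 0.1 TPM in some group. Points are libraries and black lines group means. MS4A3-201 reaches 26.3 TPM in UPF1-kd; IGF1-202 in DHX34-kd lies between 0.182 and 0.285 TPM, whereas IGF1-205, IGF1-207 and IGF1-204 scatter between 0 and 1.59 TPM within groups.

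Splitting each gene at its leading transcript showed where the IGF1 difference lay. IGF1-202 alone measured 8.44, 8.97 and 8.08 CPM in SCR and 1.04, 1.61 and 1.35 CPM in DHX34-kd, a log2 fold change of -2.76 ± 0.15 (SE). All other IGF1 transcripts together measured 1.47, 1.44 and 1.71 CPM in SCR and 0.885, 1.09 and 0.806 CPM in DHX34-kd, or -0.82 ± 0.20. In UPF1-kd both parts were slightly above SCR, by 0.20 ± 0.07 for IGF1-202 and 0.26 ± 0.16 for the rest. This split was chosen after the transcript values were seen.

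The long last exon of IGF1-202 is shared with another gene. HELLPAR, a long noncoding RNA with a single unspliced exon of 205012 bases on the plus strand (chr12:102197585-102402596), covers all 6693 bases of it from the opposite strand. Whether strand was used in the counting is not given in the sources used here, so reads from IGF1 and HELLPAR in this exon cannot be told apart if it was not. HELLPAR itself did not pass the test in either knockdown, with log2 fold changes of 0.16 (edgeR adjusted p = 0.151) and 0.09 (adjusted p = 0.278), and its expected counts ran from 3721 to 5569. Spread evenly over HELLPAR, those counts come to 126 to 182 per 6693 bases in DHX34-kd, beside the 103 to 117 counts that IGF1-202 kept there. In SCR the even spread comes to 121 to 139 per 6693 bases, beside 618 to 739 for IGF1-202. How far HELLPAR reads enter the IGF1-202 counts was not tested.

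**Figure D3:**
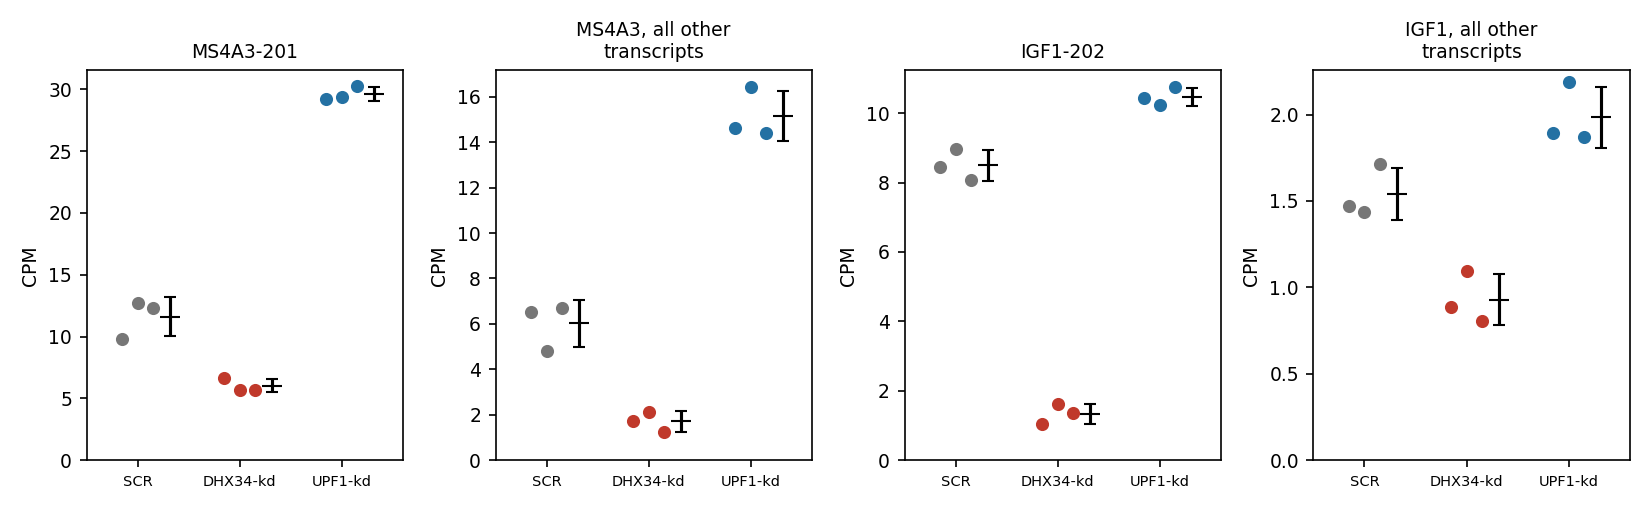
CPM of the leading transcript and of all other transcripts of each gene, on axes from 0, with points for libraries and bars for mean ± SD (n = 3). MS4A3-201 and the rest of MS4A3 show the same order of groups; IGF1-202 in DHX34-kd lies at 1.04 to 1.61 CPM against 8.08 to 8.97 CPM in SCR, a wider gap than for the other IGF1 transcripts.

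Across all genes, 64 of 16752 tested in both knockdowns (0.382%) were called lower in DHX34-kd and higher in UPF1-kd by edgeR at an adjusted p of at most 0.005. MS4A3 was chosen for this pattern, so its place in the class follows from the choice and is no finding. IGF1, with 0.21 in UPF1-kd, is not in the class. Both comparisons share the 3 SCR libraries. Ordered by the smaller of the 2 changes, the leading other genes above 5 CPM on average were COL15A1 (-0.74 and 0.65 in log2 fold change), DDIT4 (-0.63 and 0.86), ZFAS1 (-0.56 and 0.67) and SNHG6 (-0.57 and 0.56). COL15A1 is a basement membrane collagen, DDIT4 an inhibitor of mTOR signalling, and ZFAS1 and SNHG6 are snoRNA host genes, a group whose spliced transcripts are known substrates of NMD. Of the 64 genes 11 were long noncoding RNAs, and 8 of the 64 changed by more than 0.5 in both directions. The count depended on single libraries: it fell to 24, 31 and 23 without SCR replicates 1, 2 and 3, and to 30 and 35 without DHX34-kd replicates 1 and 2.

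Genes with the profile most like each member were found by the root mean square difference, over the 9 libraries, of log2(CPM + 0.5) centred on a gene's own SCR mean, among 12602 other genes averaging 1 CPM or more. For MS4A3 they were ENC1 (0.390), DDIT4 (0.405), GAS5 (0.443), COL15A1 (0.471) and SNHG32 (0.494). ENC1 is a kelch-family actin-binding protein, and GAS5 and SNHG32 are snoRNA host genes. MS4A3 had the lowest value of the 6 in DHX34-kd: the others' log2 fold changes in DHX34-kd ran from -0.98 (ENC1) to -0.41 (SNHG32), and in UPF1-kd from 0.65 (COL15A1) to 1.43 (GAS5). The median distance of a gene from MS4A3 was 1.02, and IGF1 at 0.761 was the 235th nearest.

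For IGF1 the nearest profile was that of DHX34, the targeted gene, at 0.491. It was followed by HECW2 (0.656), a ubiquitin ligase, ENSG00000267303 (0.706), ALDH1A1 (0.718), the retinaldehyde dehydrogenase, and ENSG00000282993 (0.731). Apart from DHX34, their log2 fold changes in DHX34-kd lay between -2.07 ± 0.77 (SE, ENSG00000267303) and -0.90 ± 0.07 (ALDH1A1). In UPF1-kd they lay between -0.36 (ENSG00000282993) and 0.09 (HECW2). ENSG00000267303 ran from 1.84 to 5.35 CPM in SCR and from 0 to 1.85 CPM in DHX34-kd, so these groups overlapped. HECW2 was low, averaging 1.58 CPM in SCR and 0.553 CPM in DHX34-kd (-1.58 ± 0.35). In TPM only 2 of the 5 genes nearest MS4A3 and 1 of the 5 nearest IGF1 recurred, and likeness here is a description.

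**Figure D4:**
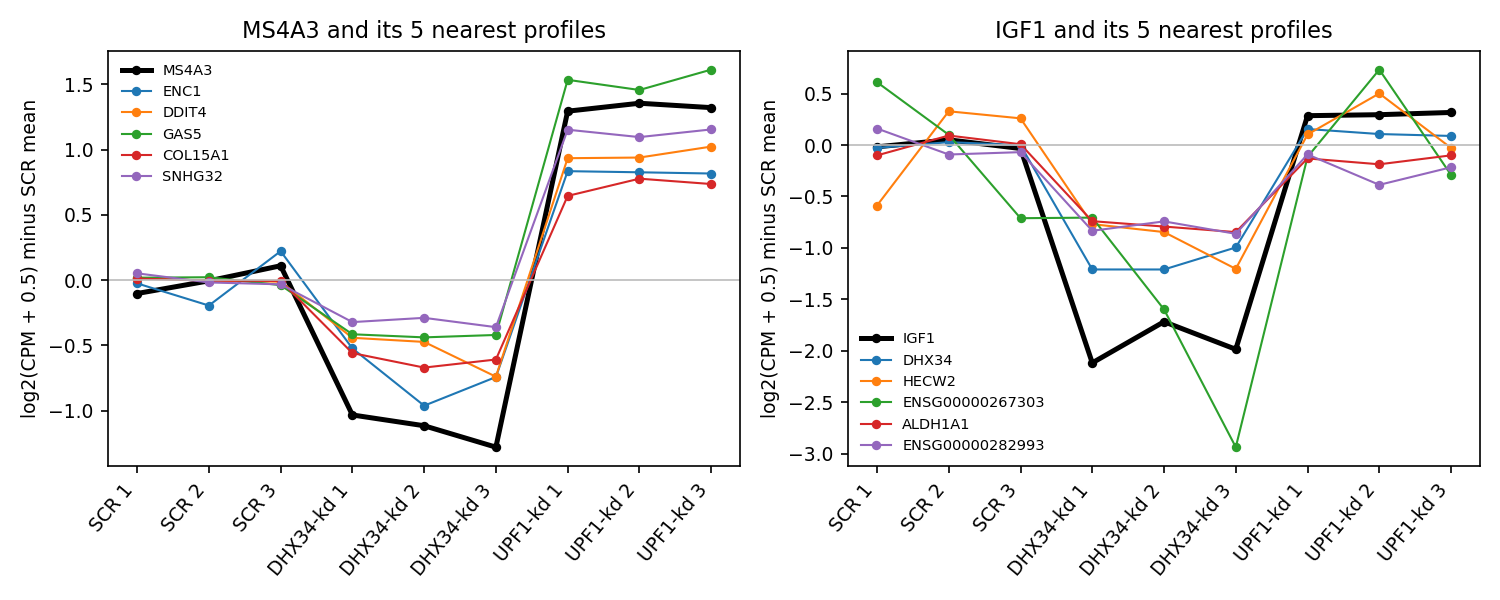
Profiles of MS4A3 (left) and IGF1 (right), in black, with the 5 nearest genes, as log2(CPM + 0.5) minus the gene's SCR mean for each of the 9 libraries. The genes near MS4A3 are lower in DHX34-kd and higher in UPF1-kd. Those near IGF1 are lower on average in DHX34-kd, where ENSG00000267303 overlaps SCR, and lie around 0 in UPF1-kd.

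MS4A3 sits in a cluster of related genes, and its neighbours were compared to see whether the pattern extended along the chromosome. The share of all genes called higher was 5.54% in DHX34-kd and 12.4% in UPF1-kd, and the share called lower 4.86% and 12.9%. Of 38 genes within 500 kb of MS4A3, 12 could be tested in DHX34-kd and 1 was called, the mitochondrial ribosome gene MRPL16, which fell (log2 fold change -0.41, edgeR adjusted p = 0.000157). In UPF1-kd 2 of 14 were called: STX3, a syntaxin of vesicle fusion, rose by 0.26 (edgeR adjusted p = 6.96e-05), and MS4A4A, a macrophage-associated relative of MS4A3, rose by 0.84 (adjusted p = 0.00135). DESeq2 also called STX3 lower in DHX34-kd, so by DESeq2 STX3 had the directions of MS4A3. In UPF1-kd DESeq2 called MRPL16 and NUP37, a neighbour of IGF1, lower as well. MS4A4A lost its call without SCR replicate 1 and without UPF1-kd replicates 2 or 3. The other neighbours with a mean of at least 0.5 CPM, OSBP, PATL1, FABP5P7, TCN1 and MS4A4E, had changes between -0.83 and 0.49 in DHX34-kd and between -1.42 and 0.46 in UPF1-kd that did not pass the edgeR test. Limma on TPM called OSBP and PATL1 higher in UPF1-kd.

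MS4A2, the beta chain of the IgE receptor of mast cells and basophils, lies 17.1 kb from MS4A3 and was measured at a low level. It measured 0.738, 0.236 and 0.362 CPM in SCR, 0.141, 0.0908 and 0.112 CPM in DHX34-kd, and 0.528, 0.582 and 0.384 CPM in UPF1-kd, so SCR and UPF1-kd overlapped. Against SCR it did not pass in DHX34-kd (log2 fold change -1.99, edgeR adjusted p = 0.0133) or UPF1-kd (0.06, adjusted p = 0.927). UPF1-kd was above DHX34-kd by 2.06 (adjusted p = 0.00177), a call lost without DHX34-kd replicates 1 or 2 and without UPF1-kd replicates 1 or 2. In this direct comparison, in which 9.89% of genes were called higher and 7.47% lower, 5 of 13 tested neighbours of MS4A3 were higher in UPF1-kd (STX3, MRPL16, TCN1, MS4A2 and MS4A4A) and MS4A3's own difference was 2.53. The count for neighbours of both genes together, 6, fell to 2 without UPF1-kd replicate 1 or 2.

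The wider MS4A family was mostly silent. Of 17 other members, 4 could be tested in DHX34-kd and 0 were called by edgeR, with 1 at an unadjusted p under 0.05 and 0 by DESeq2 or limma. In UPF1-kd 1 of 5 was called, MS4A4A, and between the knockdowns MS4A2 and MS4A4A of 5 were called. Over all genes, 5.54% were called higher and 4.86% lower in DHX34-kd, and 12.4% and 12.9% in UPF1-kd. Between the knockdowns the shares were 9.89% and 7.47%. Between the knockdowns MS4A4A lost its call without DHX34-kd replicate 2 or any UPF1-kd replicate.

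Around IGF1, of 19 genes within 500 kb 7 could be tested. In DHX34-kd 1 was called higher and 0 lower, against 5.54% and 4.86% of all genes. In UPF1-kd 0 were called, against 12.4% and 12.9%. DRAM1, a p53-induced regulator of autophagy 383.7 kb away, rose in DHX34-kd (0.82, edgeR adjusted p = 0.000228), opposite to IGF1, a call lost by limma on TPM and with length-scaled counts. In UPF1-kd the smallest edgeR adjusted p among them was 0.0111, for the nuclear pore gene NUP37 (-0.18), which misses the threshold. PARPBP, 198.4 kb away, had 0.10 and 0.14 in the 2 knockdowns and WASHC3 -0.02 and -0.10, none past the edgeR threshold. Limma on TPM called PARPBP higher in UPF1-kd. The lowest value among the 7 in DHX34-kd was -0.55, for LINC02456 (edgeR adjusted p = 0.557), beside -2.24 for IGF1.

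Genes tied to MS4A3 function were then examined. CDKN3, the phosphatase that MS4A3 binds, measured 20.6, 19.4 and 20.8 CPM in SCR, 18.5, 19.7 and 18.0 CPM in DHX34-kd, and 19.9, 19.0 and 20.5 CPM in UPF1-kd, with overlapping groups and no call (edgeR adjusted p = 0.0397 and 0.0595). Among the 11 listed partners, 8 were tested. The share of all genes called higher and lower was 5.54% and 4.86% in DHX34-kd, and 12.4% and 12.9% in UPF1-kd. In DHX34-kd edgeR called 0, with 5 at an unadjusted p under 0.05, and DESeq2 and limma called 1 each. In UPF1-kd the mitotic kinase CDK1 fell by 0.28 (edgeR adjusted p = 1.33e-05) and its cyclin CCNB1 fell by 0.30 (adjusted p = 9.86e-06). Both calls were lost by limma on TPM (adjusted p up to 0.183 for CDK1 and 0.0603 for CCNB1), which called 1 partner there, CDK2, higher. CSF2RB, the common beta chain of the IL-3, IL-5 and GM-CSF receptors, averaged 0.605, 1.04 and 0.474 CPM in SCR, DHX34-kd and UPF1-kd and was not called.

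Several other myeloid genes were called in the direction opposite to that of MS4A3. Of 33 listed myeloid genes other than MS4A3, 19 were tested in DHX34-kd, and 6 were called, all higher (background 5.54% and 4.86%), with a median log2 fold change of 0.58 over the 19 beside 0.02 over all genes. A raised median was not particular to this list. The markers of other lineages had a median of 0.69 in DHX34-kd over 5 tested, with 1 called higher (COL1A1, but not COL1A2) and 0 lower. SPI1, which encodes the myeloid transcription factor PU.1, measured 25.0, 23.5 and 23.8 CPM in SCR, 53.9, 53.0 and 49.8 CPM in DHX34-kd, and 20.2, 18.3 and 16.9 CPM in UPF1-kd. It rose by 1.03 in DHX34-kd (edgeR adjusted p = 1.45e-06) and fell by 0.49 in UPF1-kd (adjusted p = 6.93e-05), and its groups lay in the reverse order of those of MS4A3, without overlap. The UPF1-kd call of SPI1 was lost by limma on TPM with either pseudocount (adjusted p up to 0.0107), and the DHX34-kd call was not. LYZ, lysozyme, had the same reversed order, with 16.5, 16.7 and 16.2 CPM in SCR, 34.2, 35.8 and 32.2 CPM in DHX34-kd, and 12.8, 13.1 and 13.5 CPM in UPF1-kd. Its changes were 0.96 (edgeR adjusted p = 3.42e-06) and -0.43 (adjusted p = 5.19e-05), and here too limma on TPM kept the first call and lost the second (adjusted p up to 0.0193).

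The surface receptor CD33 was called in the same directions (0.36 and -0.37, edgeR adjusted p = 0.00264 and 0.0019), although the first call was lost in 5 of 6 fits that left out a library and the second in 4 of 6. PRG2, the eosinophil major basic protein, rose in DHX34-kd (1.15, edgeR adjusted p = 1.55e-05) and had -0.25 in UPF1-kd (adjusted p = 0.019). PRTN3, a granule protease, rose in DHX34-kd from a very low level, 0.142 to 0.902 CPM (2.59, edgeR adjusted p = 0.000938), a call lost without SCR replicate 3. The stem cell factor receptor KIT fell in UPF1-kd by 1.11 (edgeR adjusted p = 0.000411), a call lost by limma on TPM. RUNX1 and MYB, which encode haematopoietic transcription factors, both rose in UPF1-kd, by 0.49 and 0.27. RUNX1 was also called higher in DHX34-kd (0.21, edgeR adjusted p = 0.00451), a call lost in all 6 fits that left out a library. Without SCR replicate 3 the DHX34-kd count went from 6 to 3, and MPO, ELANE and CTSG, granule genes of the neutrophil line, averaged at most 0.0334 CPM in any group.

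In UPF1-kd the myeloid list had 2 of 20 called higher and 4 lower (background 12.4% and 12.9%), with a median of -0.05. By limma on TPM the direction turned, with 3 called higher (MYB, RUNX1 and SRGN) and 0 lower, where edgeR had called LYZ, KIT, CD33 and SPI1 lower. Between the knockdowns directly, 6 of 19 were lower in UPF1-kd (PRTN3, LYZ, PRG2, KIT, CD33 and SPI1) and 2 higher (RUNX1 and MYB), against 7.47% and 9.89% of all genes, while limma on log2(TPM + 0.5) called 6 lower and 1 higher. SPI1 differed by -1.50 and LYZ by -1.37 in this comparison (edgeR adjusted p = 5.49e-08 and 5.57e-08), where MS4A3 had 2.53.

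**Figure D5:**
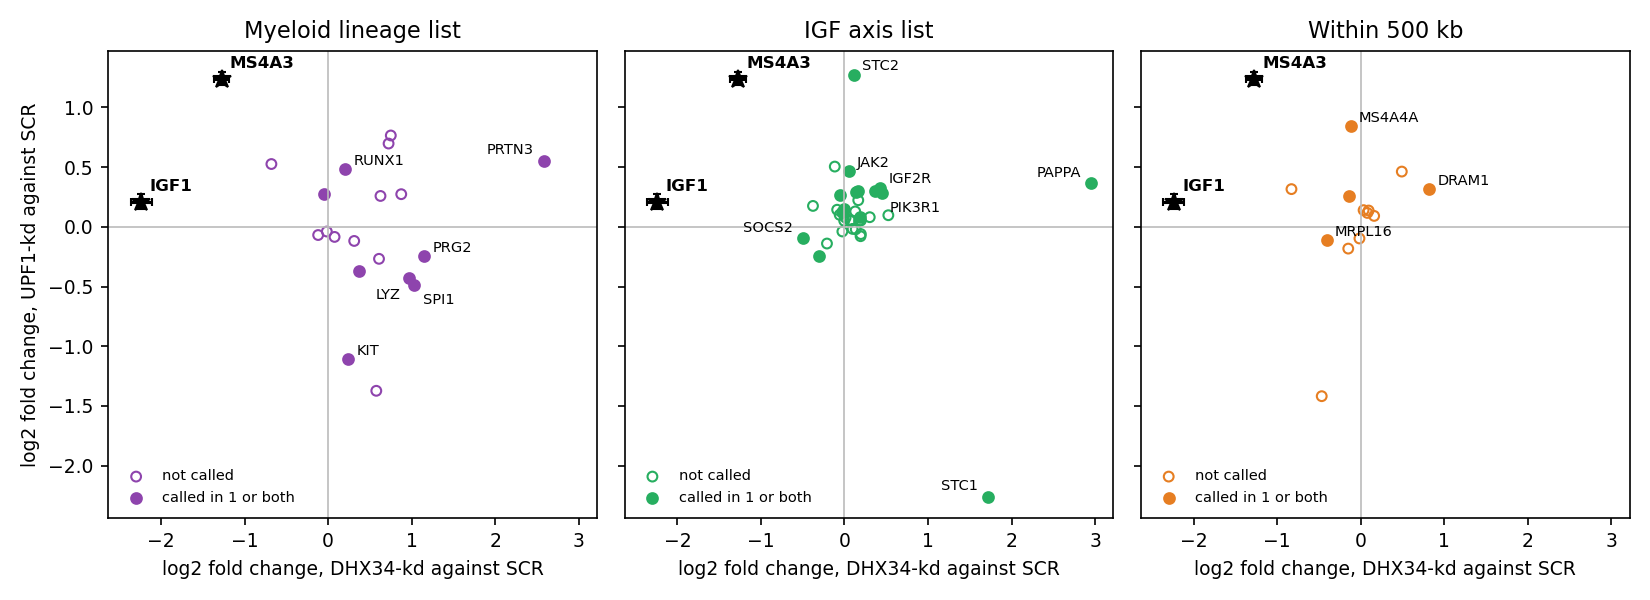
Log2 fold change in DHX34-kd (horizontal) and UPF1-kd (vertical), each against SCR, of genes of the myeloid list (left), the IGF axis list (middle) and those within 500 kb of either gene and averaging at least 0.5 CPM (right). Filled points passed the edgeR test in at least 1 comparison, and the stars are MS4A3 and IGF1 with SE bars. SPI1 (1.03, -0.49) and LYZ (0.96, -0.43) lie in the quadrant opposite to MS4A3.

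The IGF axis was examined by role, over 49 genes other than IGF1. The other ligands were at or near 0: IGF2 averaged 0 CPM in SCR and at most 0.0138 CPM elsewhere, and INS was at 0 in all groups. Of the receptors, IGF1R lacked its full-length transcript among the matched transcripts. Its partial sum stayed in the list counts, and its own level is not described. IGF2R, which binds IGF2 and mannose 6-phosphate, rose in both knockdowns, by 0.43 and 0.33 (edgeR adjusted p = 0.000418 and 0.000154), the first of which was lost by limma on TPM. The insulin receptor gene INSR was low, at 0.731, 0.719 and 1.11 CPM in SCR, DHX34-kd and UPF1-kd, and was not called.

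Among the IGF binding proteins IGFBP4 was the abundant one. It measured 71.3, 73.1 and 73.6 CPM in SCR, 99.9, 105 and 91.6 CPM in DHX34-kd, and 100.2, 103 and 85.8 CPM in UPF1-kd. Both knockdowns lay above SCR without overlap, by 0.36 and 0.30 (edgeR adjusted p = 0.00117 and 0.000998), though each call was lost in 4 of 6 fits that left out a library. PAPPA, the protease that cleaves IGFBP4, rose in DHX34-kd from 0.111 to 0.919 CPM (2.95, edgeR adjusted p = 0.000262), a call lost by limma on TPM. Its inhibitors differed from each other: STC2 rose in UPF1-kd from 15.6 to 40.6 CPM (1.27, edgeR adjusted p = 2.28e-09), and STC1, at 0.271 CPM in SCR and 0.954 CPM in DHX34-kd, rose in DHX34-kd (1.72, adjusted p = 0.00382), a call lost in 5 of 6 fits that left out a library.

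In the growth hormone input to IGF1 transcription, SOCS2, a feedback inhibitor, changed in the direction of IGF1 in DHX34-kd only. It measured 98.9, 98.5 and 104 CPM in SCR, 75.1, 75.6 and 76.6 CPM in DHX34-kd, and 100.4, 100.2 and 102 CPM in UPF1-kd. SOCS2 fell by 0.49 in DHX34-kd (edgeR adjusted p = 1.55e-05) and had -0.10 in UPF1-kd, which was not called (adjusted p = 0.0376). JAK2, the kinase of this input, rose in UPF1-kd by 0.46 (edgeR adjusted p = 1.27e-06), as did STAT5A by 0.15 (adjusted p = 0.000318), and neither was called in DHX34-kd. The growth hormone receptor GHR averaged at most 0.0478 CPM in any group.

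Downstream of the receptor the changes were small. Of the PI3K-AKT branch, PIK3R1 rose in both knockdowns (0.44 and 0.28), RHEB, the GTPase that activates mTOR, fell in both (-0.30 and -0.25), and PIK3R2 rose in DHX34-kd (0.18). The PIK3R1 calls were lost in 3 and 5 of 6 fits that left out a library and the PIK3R2 call in 5 of 6. Both RHEB calls were lost by limma on TPM (adjusted p up to 0.0071 in DHX34-kd and 0.217 in UPF1-kd). PDPK1, RPTOR and AKT1 rose in UPF1-kd, by 0.30, 0.29 and 0.12, as did the adaptor GRB10 by 0.27, and the AKT1 call was lost in all 6 fits that left out a library. Over the whole list 37 genes were tested in DHX34-kd, with 6 higher and 2 lower, and 36 in UPF1-kd, with 10 higher and 1 lower. These edgeR counts compare with edgeR backgrounds of 5.54% and 4.86%, and of 12.4% and 12.9%. The list medians were 0.11 and 0.10 beside 0.02 and 0.02 over all genes. Limma on TPM called 15 higher and 0 lower in UPF1-kd, and length-scaled counts 1 higher and 2 lower in DHX34-kd. No share over all genes is given for those 2 settings. The DHX34-kd count of 8 fell to 4 without SCR replicate 1 or 3 and to 5 without SCR replicate 2 or DHX34-kd replicate 1. Between the knockdowns 9 of 37 genes were higher in UPF1-kd and 2 lower, a count of 11 that fell to 7 without any 1 of the UPF1-kd replicates, and limma on log2(TPM + 0.5) called 2 higher and 0 lower.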

How the data were processed

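RNA-seq of 9 K562 libraries was used. The authors quantified reads with Salmon against Ensembl transcripts on GRCh38, and per the deposited tables each transcript has an expected count, a TPM (length-scaled abundance) and an effective length. The deposited sleuth and SUPPA2 tables hold the authors' own comparisons and were not used. Per-library columns without a sample numbered 0. Transcripts were matched by identifier to GENCODE 44, which holds 97.9% of them and 98.1% of the counts. The lengths of MS4A3-201 and IGF1-202 differ between the tables and GENCODE, so their coordinates are those of GENCODE. Some listed genes, IGF1R among them, lack their canonical GENCODE transcript in the match, so their sums may be partial.

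Expected counts were summed per gene and rounded to whole numbers. Genes were fitted with edgeR 4.0.16 (R 4.3.3) by quasi-likelihood after TMM scaling. Each comparison used its own 6 libraries and the filterByExpr default with minimum count 10. Calls required a p of 0.005 or less after Benjamini-Hochberg adjustment across every tested gene. Each SE was the log2 fold change over the root of the F statistic. CPM used the total of matched counts. DESeq2 1.42.0, and limma 3.58.1 on log2(TPM + 0.5), were alternatives. The fits were tested on simulated data. The replicates are described as biological; p-values measure the spread between these libraries.

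MS4A3, IGF1, the gene lists and the naming rules were chosen with earlier results of these data known. Named were member transcripts with a mean of at least 0.1 TPM in some group, the targeted genes, the 5 nearest profiles per member, the leading genes of the opposite class with a mean of at least 5 CPM, list genes called or among the 5 most abundant of a list, and genes within 500 kb with a mean of at least 0.5 CPM. Other transcripts, MS4A2, IGF2, INS, INSR, CSF2RB, GHR and the granule genes were named after their values were seen. Promoter windows are from RefSeq on GRCh38.p14 and junctions from GENCODE transcripts; both members matched.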

Additional observations from a re-analysis of the deposited data

How the results depend on the processing

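Of 220 values recomputed under settings other than leaving out a library, 137 stayed and 83 moved, and none changed sign once called. With length-scaled counts MS4A3 had -1.46 in DHX34-kd and 2.65 between the knockdowns (log2), and IGF1 -1.21, 0.31 in UPF1-kd and 1.54. With limma on log2(TPM + 0.5) MS4A3 had 1.38 in UPF1-kd, and IGF1 -0.89, 0.48 and 1.36. With a pseudocount of 0.1 MS4A3 had 1.39 and 2.69, and IGF1 -1.02, 0.52 and 1.53. TPM weights short transcripts more by construction. With the gene length trend removed IGF1 had 0.10 in UPF1-kd. Settings chosen after seeing the data split each gene: the leading transcript only gave MS4A3 -1.03 and 2.30, and IGF1 -2.76 and 2.98, and without it the values were -1.91 and 3.15 for MS4A3 and -0.82, 0.26 and 1.10 for IGF1. By expected counts the share of MS4A3-201 was 65.7%, 78.0% and 66.2% in SCR, DHX34-kd and UPF1-kd, and that of IGF1-202 84.6%, 58.8% and 84.1%. In log2(TPM + 0.5), 2 of 5 similar genes of MS4A3 and 1 of 5 of IGF1 recurred.

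Counts of calls moved as follows, for DHX34-kd and UPF1-kd against SCR and for the direct comparison of the knockdowns. At an adjusted p of 0.05 the IGF axis had 14 in DHX34-kd and 17 in UPF1-kd, the MS4A family 1 in DHX34-kd, the MS4A3 partners 2 in DHX34-kd and 2 in the direct comparison, genes within 500 kb 6 in DHX34-kd and 8 in UPF1-kd, and the class lower in DHX34-kd and higher in UPF1-kd 215. By limma with pseudocounts of 0.5 and 0.1 the IGF axis had 3 and 4 in DHX34-kd and 2 and 3 in the direct comparison, and that class 16 and 20. With either pseudocount the partners had 1 in DHX34-kd and 1 in UPF1-kd, both CDK2 and higher, the MS4A family 1 in the direct comparison, myeloid genes 3 in UPF1-kd, all higher, against 2 higher and 4 lower by edgeR, and genes within 500 kb 1, 5 and 3 in the 3 comparisons. With length-scaled counts the IGF axis had 3 in DHX34-kd and 7 in the direct comparison, the MS4A family 0 in UPF1-kd and 1 in the direct comparison, genes within 500 kb 1, 1 and 3, and the class 19. With no filter the MS4A family had 1 in DHX34-kd, the partners 1 in DHX34-kd and 2 in the direct comparison, genes within 500 kb 4 in UPF1-kd, and the class 118. By DESeq2 the partners had 1 in DHX34-kd and 1 in the direct comparison, genes within 500 kb 4 in UPF1-kd, and the class 122. One fit of all 9 libraries gave the partners 1 in DHX34-kd and 1 in the direct comparison and the class 99, and RLE size factors gave the partners 1 in the direct comparison. The cause was not tested. Of 66 calls of named genes, 30 were lost by limma with a pseudocount of 0.5, 22 with length-scaled counts, 2 with RLE, 1 with all 9 libraries and 0 by DESeq2.

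Leaving out each library in turn gave log2 fold changes from -1.35 to -1.19, 1.18 to 1.30 and 2.44 to 2.60 for MS4A3, and from -2.39 to -2.14, 0.20 to 0.22 and 2.36 to 2.62 for IGF1. The share of MS4A3-201 ran from 40.4% to 48.1%, 58.6% to 61.6% and 45.7% to 47.5% in SCR, DHX34-kd and UPF1-kd, and that of IGF1-202 from 34.6% to 37.8%, 11.6% to 13.6% and 32.5% to 35.1%. Counts in the 3 comparisons ran from 4 to 7, 8 to 10 and 7 to 13 for the IGF axis, 0 to 0, 0 to 1 and 0 to 2 for the MS4A family, 0 to 0, 2 to 2 and 0 to 2 for the partners, 3 to 5, 5 to 6 and 8 to 9 for myeloid genes, 2 to 2, 1 to 3 and 2 to 6 for genes within 500 kb, and from 23 to 64 for the class. The partners had 2 without DHX34-kd replicate 3.

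Libraries of equal number did not deviate together (correlations from -0.226 to 0.176), so they were not treated as paired. With the number as a replicate block the direct MS4A family count was 0, the class counted 32, and 8 of 66 calls were lost. In this block MS4A3 had -1.28, 1.24 and 2.54, and IGF1 -2.25, 0.21 and 2.47. MS4A2 and other genes with few counts are limited by depth.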
